A study of Mus musculus with 12 samples.

Results

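Polycomb, histone methylation and SWI/SNF genes are 39 genes of chromatin regulation, taken here as a list of symbols without regard to how they moved. Of these, 38 had at least 1 probe set that the platform annotation paired with them alone, with 108 probe sets in all. The array named 18193 genes this way and had 45037 probe sets that were not controls. Suv39h1 was paired with no probe set in the annotation used and is not analysed here. They fell into 13 Polycomb genes, 7 histone methyltransferase genes, 7 histone demethylase genes and 12 remodeller genes. A probe set was tested if its signal exceeded the filter level, the median of all values on the 12 arrays (6.23 on the log2 scale, a signal of 74.9), in at least 2 arrays. This held for 85 of the 108 probe sets and for 36 of the 39 genes, each gene being represented by its brightest probe set on average. Kdm5b and Smarcd3 did not pass in any of their probe sets.

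The arrays measured RNA of mouse cell lines in 6 groups of 2. HAFTL, derived from fetal liver and transformed by the Ha-ras oncogene, received beta estradiol. C10, a B lineage line that carries an inducible form of the myeloid factor C/EBPα (C/EBPa in the labels), received either ethanol, the vehicle, or beta estradiol over 3, 12, 24 or 48 hours. All C10 groups carry the inducible factor and each line is a single culture line, so HAFTL differed from vehicle C10 both in the line and in the agent, and these cannot be told apart. The labels give neither a dose, nor a duration for vehicle C10 and HAFTL, nor whether the duplicates are separate cultures. The p-values therefore reflect only how these samples spread, and that spread may be technical.

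Polycomb proteins act in 2 groups of complexes that keep developmental genes silent. PRC2 methylates a lysine of histone H3 through its catalytic subunit Ezh2 or Ezh1, and PRC1 ubiquitinates histone H2A through Ring1 or Rnf2 and binds methylated histone H3 through Cbx subunits. Histone methyltransferases and demethylases write and erase further methyl marks, some of them bound to silent and some to active genes. SWI/SNF, ISWI and CHD complexes use ATP to move or evict nucleosomes. In B cell development Ezh2 is known to be needed in dividing precursors, and SWI/SNF subunits are exchanged between cell types.

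Vehicle C10 and HAFTL both bore markers of the B lineage. The summed signal of 11 B lineage markers was 120200 to 122600 in vehicle C10 and 134700 to 135400 in HAFTL, and 18770 to 20390 at 48 h. That of 10 macrophage markers went from 2562 to 2694 in vehicle C10 to 164200 to 165000 at 48 h. The summed signal of 7 granulocyte markers reached 13810 to 15420 at 24 h from 219 to 222 in vehicle C10. Camp (log2 signals of 13.04 and 12.88) and S100a8 (12.70 and 12.58) made up this rise, and no other granulocyte marker exceeded 6.27 at 24 h. Of the T cell markers, 4 of 5 were under the filter level in both arrays of every C10 group. In such bulk samples, fewer cells of a type and less RNA per cell cannot be told apart. The ratio of 5′ to 3′ Actb signal, which falls as RNA degrades, was 0.582 and 0.638 in vehicle C10 and 0.746 to 0.848 in all C10 arrays with estradiol, and its part in the results was not tested.

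After 3 h of estradiol, 7 members were higher and 14 lower than in vehicle C10, with 15 not passing (limma, Benjamini-Hochberg adjusted p below 0.05). Of the 11686 genes tested on the array, 19.6% rose and 25.9% fell over the same 3 h. The 12 h arrays had 3 members higher and 17 lower, beside 21.0% and 27.3% of all genes. By 24 h, 1 member was higher and 20 were lower (23.1% and 32.1% of all genes), and by 48 h 2 were higher and 22 lower (23.5% and 37.2%). The members' median log2 change was -0.12, -0.29, -0.57 and -0.58 in order of time, against -0.06, -0.08, -0.13 and -0.19 over all genes tested. Over the 5 C10 groups, 30 of 36 members differed (moderated F test of limma), beside 74.5% of all genes. Averaging all probe sets of a gene gave 5 lower members after 3 h, 5 higher and 7 lower after 12 h and 5 higher after 48 h. Leaving out either vehicle array reduced the 17 lower members of 12 h to 11, and leaving out the second 24 h array raised the 1 higher member of 24 h to 2.

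Rises and falls kept neither their balance nor, for some members, their sign under a scaling to the spike-in transcripts, poly-A RNAs added to each sample. That scaling moved the median of all genes to 0.58, 0.39, 0.23 and 0.38 in order of time, and the members' median to 0.53, 0.30, -0.15 and 0.00. Relative to all genes, the members' median was then -0.05, -0.09, -0.38 and -0.38. It called 7 members higher and 1 lower in the 3 h arrays, 0 and 1 in those of 12 h, 0 and 3 in those of 24 h, and 1 and 2 in those of 48 h. The spike-in signals themselves varied, with log2 means of 7.53 and 6.52 in the 48 h duplicates. The 7 rises called under it after 3 h were those of Ezh2 (1.65), Suz12 (1.38), Eed (1.56), Jarid2 (1.39), Cbx8 (1.40), Smarcc1 (1.37) and Smarcd1 (1.95), and Phc2 (1.56) was the 1 called higher after 48 h. The falls called under it, and called changes that turned sign, are named beside their values.

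**Figure D1:**
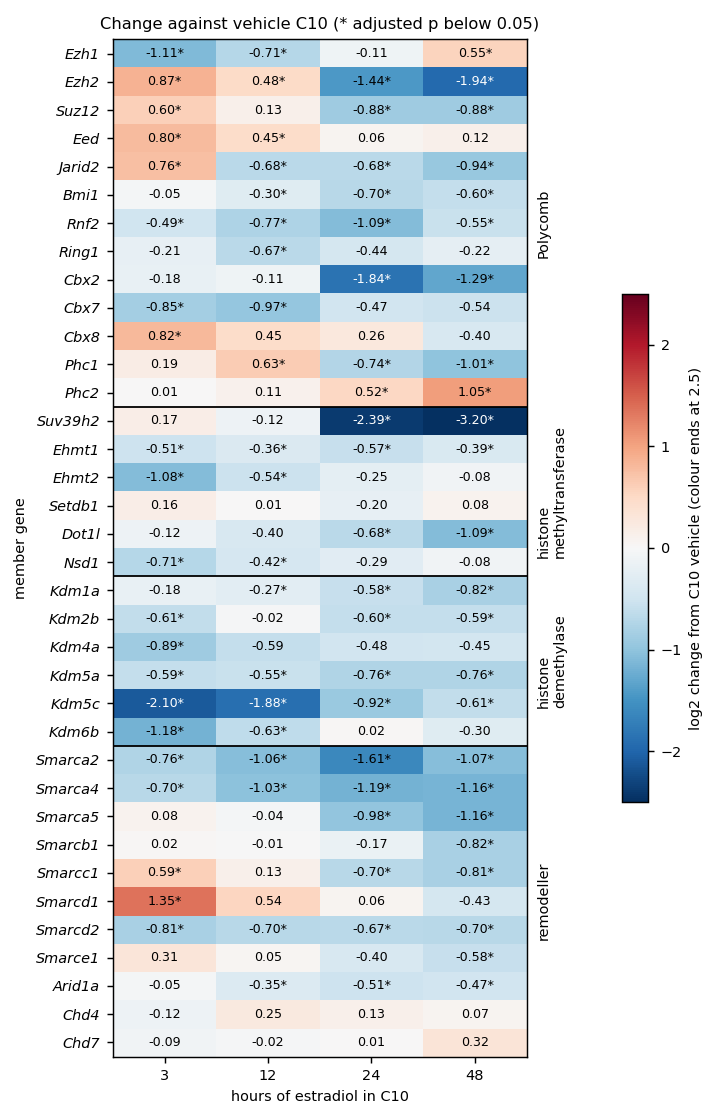
Log2 change from vehicle C10 of the 36 tested members, 1 row per gene in 4 classes and 1 column per time of estradiol, with the value in each cell and an asterisk where the adjusted p was below 0.05. Rises at 3 h lie mostly among the Polycomb genes (5 of 13, beside 19.6% of all genes tested). At 48 h only Ezh1 and Phc2 are called higher and 22 members lower, beside 23.5% and 37.2% of all genes.

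Of the 5 PRC2 genes, Ezh2, Suz12, Eed and Jarid2 rose at 3 h, and all of these but Eed had fallen by 48 h, while Ezh1 went the other way. Among all genes tested, 19.6% rose and 25.9% fell at 3 h, and 23.5% rose and 37.2% fell at 48 h. Ezh2, the catalytic subunit of dividing cells, had log2 signals of 12.46 and 12.40 in vehicle C10, 13.35 and 13.27 at 3 h and 12.91 and 12.92 at 12 h, then 10.99 and 10.99 by 24 h and 10.41 and 10.58 by 48 h. The groups did not overlap with vehicle C10 at any time. Ezh2 rose by 0.87 ± 0.09 at 3 h (SE, n = 2 per group; adjusted p = 2.2e-04 by limma) and fell by 1.94 ± 0.09 at 48 h, to a signal 3.83-fold lower (adjusted p = 1.5e-06). Most of that fall came from 12 h to 24 h (-1.93 ± 0.09, adjusted p = 5.6e-06). Both the rise at 3 h (1.65) and the fall at 48 h (-1.34) remained called under spike-in scaling.

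Ezh1, which encodes the other catalytic subunit and is known from resting cells, was low when Ezh2 was high. Ezh1 signals (log2) were 10.03 and 10.01 in vehicle C10, 8.92 and 8.91 in the 3 h arrays, 9.25 and 9.38 in those of 12 h, 9.97 and 9.85 in those of 24 h and 10.60 and 10.54 in those of 48 h. It was lowest at 3 h and highest at 48 h, and only the 48 h arrays lay above vehicle C10. Ezh1 fell by 1.11 ± 0.09 at 3 h (adjusted p = 6.8e-05 by limma) and rose by 0.55 ± 0.09 at 48 h (adjusted p = 1.1e-03). Each step between times was a rise, by 0.40, 0.60 and 0.66. A second tested probe set of Ezh1 fell by 0.92 at 3 h and had 0.41 at 48 h, which did not pass. With all 4 probe sets averaged, the 2 untested ones included, Ezh1 had -0.06 at 3 h (adjusted p = 0.713) and -0.07 at 12 h (0.681), and neither was called.

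The core subunits Suz12 and Eed differed from each other at late times. Suz12, which holds the complex together, had log2 signals of 12.09 and 11.89 in vehicle C10, 12.60 and 12.59 after 3 h, 12.11 and 12.14 after 12 h, 11.05 and 11.16 after 24 h and 11.25 and 10.98 after 48 h. The 3 h arrays lay above and the 24 h and 48 h arrays below both vehicle arrays. It rose by 0.60 ± 0.12 at 3 h (adjusted p = 4.7e-03 by limma) and fell by 0.88 ± 0.12 at 48 h (adjusted p = 3.9e-04). Of its 6 tested probe sets, 5 were called lower at 48 h and none higher, beside 30.1% and 25.6% of all probe sets tested, and the sixth, a dim one, had -1.13. Eed, which binds the methylated histone, rose by 0.80 ± 0.09 at 3 h and 0.45 ± 0.09 at 12 h. At 48 h Eed had 0.12 ± 0.09 with a 95% interval from -0.09 to 0.33.

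Jarid2, an accessory subunit that brings PRC2 to its targets, fell earlier than the core. On the log2 scale it measured 9.34 and 9.05 in vehicle C10, 9.83 and 10.08 at 3 h and 8.64 and 8.39 at 12 h, then 8.41 and 8.63 by 24 h and 8.09 and 8.41 by 48 h. The 3 h arrays were above vehicle C10 and all later ones below it. It rose by 0.76 ± 0.19 at 3 h (adjusted p = 0.0133 by limma) and was lower by -0.68 at 12 h, -0.68 at 24 h and -0.94 at 48 h. The fall from 3 h to 12 h was 1.44 ± 0.19, the largest of any member over that step. The 48 h call held without any 1 array, whereas the others did not. At 3 h Jarid2 was not called without the second vehicle array (0.62, adjusted p = 0.0806) or the second 3 h array (0.64, 0.0755), at 12 h without the first vehicle array (-0.54, 0.109) or the second 12 h array (-0.56, 0.105), and at 24 h without the first vehicle array (-0.53, 0.101) or the first 24 h array (-0.57, 0.0928). All 3 probe sets of Jarid2 were called higher at 3 h, but only the brightest was called lower later. With the 3 averaged, Jarid2 had -0.28 at 12 h (adjusted p = 0.185) and -0.38 at 24 h (0.0732).

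**Figure D2:**
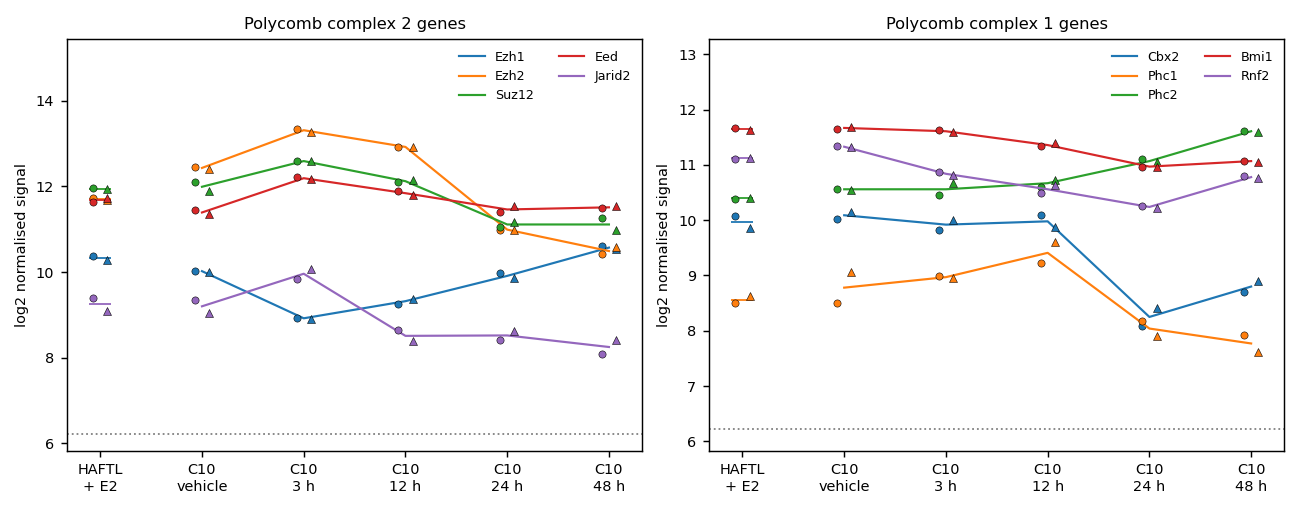
Log2 normalised signal of Polycomb genes in every array (circle, replicate 1; triangle, replicate 2) by group, with lines through the C10 group means, a bar at the HAFTL mean and the filter level dotted. Ezh2 lies above vehicle C10 at 3 h and below it from 24 h, Ezh1 the reverse at 3 h and 48 h, and Phc2 ends at 11.62 and 11.59; levels of different genes are not comparable, since each probe set has its own brightness.

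Of the 8 PRC1 genes, Bmi1, Rnf2, Cbx2 and Phc1 were lower at 24 h and 48 h, and Phc2 was higher. Of all genes tested, 32.1% were lower and 23.1% higher at 24 h, and 37.2% lower and 23.5% higher at 48 h. Cbx2, a subunit that reads histone methylation, had log2 signals of 10.03 and 10.15 in vehicle C10, between 9.82 and 10.09 at 3 h and 12 h, then 8.08 and 8.42 at 24 h and 8.70 and 8.90 at 48 h. Its signals at 24 h and 48 h were below those of every earlier array. Cbx2 fell by 1.84 ± 0.16 at 24 h (adjusted p = 4.6e-05 by limma) and 1.29 ± 0.16 at 48 h, and the fall at 24 h remained called under spike-in scaling (-1.54). From 24 h to 48 h it rose by 0.55 ± 0.16.

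Phc1 and Phc2 encode related scaffold subunits, and they parted. Phc2 had log2 signals of 10.57 and 10.54 in vehicle C10, 10.46 and 10.67 in the 3 h arrays, 10.60 and 10.73 in those of 12 h, 11.10 and 11.05 in those of 24 h and 11.62 and 11.59 in those of 48 h. The 3 h arrays overlapped with vehicle C10, and those of 24 h and 48 h lay above every earlier array. It rose by 0.52 ± 0.10 at 24 h and 1.05 ± 0.10 at 48 h (adjusted p = 5.3e-05 by limma), and its other probe set by 0.88 at 48 h. Phc1 had 8.50 and 9.06 in vehicle C10, 8.99 and 8.95 after 3 h, 9.22 and 9.60 after 12 h, 8.18 and 7.90 after 24 h and 7.92 and 7.62 after 48 h. The signals of 3 h lay within the vehicle range, those of 12 h above it and those of 24 h and 48 h below it. It fell by 1.01 ± 0.22 at 48 h (adjusted p = 5.0e-03). Its rise of 0.63 at 12 h was not called without the first vehicle array (0.35, adjusted p = 0.261) or the second 12 h array (0.44, 0.236). Its fall of 0.74 at 24 h was not called without the second vehicle array (-0.45, adjusted p = 0.137) or the second 24 h array (-0.60, 0.124).

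Rnf2, the main ubiquitin ligase subunit, was lower at all 4 times, by 1.09 ± 0.08 at 24 h at most, and rose by 0.53 from 24 h to 48 h; its changes of -0.49 at 3 h and -0.55 at 48 h turned to 0.23 and 0.00 under spike-in scaling. Its partner Bmi1 was lower from 12 h in its brightest probe set, by 0.70 ± 0.07 at 24 h, and its change of -0.30 at 12 h turned to 0.22. The second probe set of Bmi1 had 10.92 and 10.83 in vehicle C10. It was lower already at 3 h (10.30 and 10.44) and had 9.79 and 9.97 at 24 h. Cbx8 rose by 0.82 ± 0.16 at 3 h, Cbx7 fell by 0.85 ± 0.25 at 3 h and 0.97 ± 0.25 at 12 h, and Ring1 fell by 0.67 ± 0.18 at 12 h. At 48 h Cbx7, Cbx8 and Ring1 had -0.54, -0.40 and -0.22 and did not pass.

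Beside these courses, genes of the cell cycle moved in the same order of times. All 22 tested cell cycle genes were higher at 3 h with a median log2 change of 1.78, 21 were higher at 12 h (median 1.44), and 19 were lower and 2 higher at 24 h (median -1.76) and at 48 h (median -3.30). The summed signal of the list was 61490 to 62220 in vehicle C10, 191500 to 196100 at 3 h, 144200 to 144600 at 12 h, 18720 to 19430 at 24 h and 9384 to 9461 at 48 h. Mki67, a marker of dividing cells, rose by 1.06 ± 0.10 at 3 h and fell by 6.08 ± 0.10 at 48 h. The part of cell division in the changes of the chromatin genes was not tested.

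Of 6 tested histone methyltransferase genes, 3 were lower and none higher at each of the 4 times, beside 25.9%, 27.3%, 32.1% and 37.2% of all genes lower. Their median log2 change was -0.32, -0.38, -0.43 and -0.23 in order of time, against -0.06, -0.08, -0.13 and -0.19 over all genes. Suv39h2, which methylates histone H3 in heterochromatin, changed most at the late times. The arrays gave log2 signals of 8.11 and 7.75 in vehicle C10, 8.07 and 8.14 at 3 h and 7.65 and 7.96 at 12 h, then 5.23 and 5.86 by 24 h and 5.04 and 4.42 by 48 h. All arrays at 24 h and 48 h were under the filter level, so Suv39h2 was lower by at least 3.26-fold at both times (adjusted p = 3.9e-04 and 5.9e-05 by limma). The fitted changes were -2.39 ± 0.30 and -3.20 ± 0.30, and both remained called under spike-in scaling (-2.04 and -2.62). Its other tested probe set had -2.18 at 24 h and -3.02 at 48 h.

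Dot1l, which methylates histone H3 within transcribed genes, had a smaller fall. Its log2 signals were 9.47 and 9.50 in vehicle C10, 9.21 and 9.51 in the 3 h arrays, 9.25 and 8.92 in those of 12 h, 8.96 and 8.66 in those of 24 h and 8.39 and 8.40 in those of 48 h. Only the 3 h arrays overlapped with vehicle C10. Dot1l fell by 0.68 ± 0.16 at 24 h and 1.09 ± 0.16 at 48 h (adjusted p = 6.4e-04 by limma). The 24 h fall was not called without the second 24 h array (-0.52, adjusted p = 0.0580).

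Ehmt1 and Ehmt2, partners in one methyltransferase complex, differed in their courses. Ehmt2 went from 12.18 and 12.21 in vehicle C10 to 11.10 and 11.14 after 3 h and 11.94 and 12.29 after 48 h. It fell by 1.08 ± 0.12 at 3 h (adjusted p = 3.3e-04 by limma) and 0.54 ± 0.12 at 12 h, where spike-in scaling gave 0.03. At 48 h Ehmt2 had -0.08 with a 95% interval from -0.36 to 0.20, and it had risen by 1.00 ± 0.12 since 3 h. Ehmt1 had log2 signals of 11.36 and 11.03 in vehicle C10 and between 10.58 and 10.88 in every later array, below both vehicle arrays. Its changes of -0.51 at 3 h, -0.36 at 12 h and -0.39 at 48 h turned to 0.20, 0.12 and 0.15 under spike-in scaling, and that of -0.57 at 24 h kept its sign. Without the first vehicle array Ehmt1 was not called at 3 h (-0.35, adjusted p = 0.0603), 12 h (-0.20, 0.228) or 48 h (-0.23, 0.151). It was also not called at 12 h without the first (-0.35, 0.136) or second (-0.37, 0.122) 12 h array, or at 48 h without the second 48 h array (-0.32, 0.120). Setdb1 had between -0.20 and 0.16 and passed at no time in its brightest probe set, although a dimmer one rose by 1.26 ± 0.27 at 48 h.

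Promoter sequences are shown for the measured members whose window held the letters of an E2F site, a class of factors of the cell cycle, or of a C/EBP site, the family of the induced factor. The windows run from 250 bases before to 50 bases after a gene's start and come from RefSeq (GRCm38.p6), which held 33 of the 39 members, 7 of them with several windows. Letters were searched on both strands: TTTGGCGC, TTTCGCGC or TTCCCGCC for E2F, TTTGAA for the cell cycle element CHR, TTGCNNAA for C/EBP and GAGGAAGT for PU.1. E2F letters stood in 3 of 33 members (9.1%) and 3.4% of all 27025 genes with a window. CHR letters stood in 4 members (12.1%) and 20.2% of all genes, C/EBP letters in 4 (12.1%) and 12.2%, and PU.1 letters in 0 and 3.7%. In the windows printed here no 2 motifs overlapped. A match is a description of letters and not a binding site.

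The 3 stretches with E2F letters, in capitals on the gene's own strand, belong to Ezh2, Suv39h2 and Arid1a. Ezh2 was higher at 3 h and 12 h and lower from 24 h, Suv39h2 was lower from 24 h, and Arid1a was lower from 12 h. All 3 genes lie on the minus strand, at chr6:47595009-47595038, chr2:3475098-3475157 and chr4:133754006-133754065. The letters begin at base 4 after the start in Ezh2, and 145 and 54 bases before it in Suv39h2 and Arid1a.
Ezh2: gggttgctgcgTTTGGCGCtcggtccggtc
Suv39h2: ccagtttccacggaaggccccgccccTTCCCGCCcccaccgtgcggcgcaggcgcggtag
Arid1a: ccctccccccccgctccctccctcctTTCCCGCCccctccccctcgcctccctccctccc

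The stretches with C/EBP letters belong to Cbx8, higher at 3 h, to Smarcd2, lower at all 4 times, and to Setdb1, called at no time in its brightest probe set. They are printed on the gene's own strand, the minus strand, and the capitals are there the reverse complement of TTGCNNAA, which reads on the opposite strand. They lie at chr11:119040998-119041057, chr11:106267731-106267790 and chr3:95357153-95357172, with the capitals beginning 118 and 132 bases before the start in Cbx8 and Smarcd2 and at base 42 after it in Setdb1. The last of the 4 genes with such letters was Suv39h1, which was not measured.
Cbx8: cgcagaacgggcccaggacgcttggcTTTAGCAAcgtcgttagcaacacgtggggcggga
Smarcd2: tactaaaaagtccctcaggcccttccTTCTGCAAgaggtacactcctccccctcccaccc
Setdb1: gtttgcctgggTTTGGCAAg

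No histone demethylase gene was called higher in its brightest probe set. Of 6 tested, 5 were lower at 3 h and 4 at each later time, beside 25.9% of all genes at 3 h and 27.3% to 37.2% later. The median log2 changes were -0.75, -0.57, -0.59 and -0.60, where all genes had -0.06, -0.08, -0.13 and -0.19. Kdm5c, which removes methyl groups that mark active promoters, had log2 signals of 10.54 and 10.59 in vehicle C10, 8.52 and 8.40 after 3 h, 8.47 and 8.90 after 12 h, 9.64 and 9.64 after 24 h and 9.95 and 9.96 after 48 h. Every later array was below both vehicle arrays. Kdm5c was 4.30-fold lower at 3 h (-2.10 ± 0.14, adjusted p = 2.7e-05 by limma) and still lower by -0.61 ± 0.14 at 48 h, after a rise of 0.96 from 12 h to 24 h. The falls at 3 h and 12 h remained called under spike-in scaling (-1.52 and -1.42). This course belonged to 1 probe set of 8, as described below.

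Kdm6b, which removes the mark that PRC2 sets, was lower at 3 h and 12 h in its brightest probe set. Log2 signals were 10.55 and 10.57 in vehicle C10, 9.28 and 9.47 at 3 h and 9.97 and 9.89 at 12 h, then 10.51 and 10.65 by 24 h and 10.38 and 10.14 by 48 h. The 24 h arrays overlapped with vehicle C10 and the others lay below it. Kdm6b fell by 1.18 ± 0.11 at 3 h (adjusted p = 1.7e-04 by limma) and 0.63 ± 0.11 at 12 h, rose by 0.65 from 12 h to 24 h, and had -0.30 at 48 h with a 95% interval from -0.56 to -0.04 and an adjusted p of 0.0551. A dimmer probe set of Kdm6b had -0.05 at 3 h and fell by 1.24 at 48 h. Kdm4a fell by 0.89 ± 0.26 at 3 h and passed at no later time. Kdm5b, a relative of Kdm5a and Kdm5c, stayed under the filter level, and its 4 probe sets lay between the floor and 6.22.

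Kdm1a, the LSD1 gene, was lower from 12 h. Log2 signals of Kdm1a were 12.06 and 12.13 in vehicle C10, 11.90 and 11.92 in the 3 h arrays, 11.83 and 11.81 in those of 12 h, 11.49 and 11.54 in those of 24 h and 11.20 and 11.35 in those of 48 h. All later arrays were below vehicle C10. Of the steps between times, that from 12 h to 24 h passed (-0.30 ± 0.09), and those from 3 h to 12 h (-0.09) and from 24 h to 48 h (-0.24) did not. It fell by 0.58 ± 0.09 at 24 h and 0.82 ± 0.09 at 48 h (adjusted p = 1.1e-04 by limma). Its change of -0.27 at 12 h turned to 0.30 under spike-in scaling, and was not called without the first (-0.31, adjusted p = 0.0712) or second (-0.24, 0.146) vehicle array or the first (-0.28, 0.103) or second (-0.26, 0.127) 12 h array.

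Kdm2b, which brings a form of PRC1 to unmethylated CpG islands, was lower at 3 h, 24 h and 48 h but not at 12 h. The log2 signals of Kdm2b were 12.05 and 12.01 in vehicle C10, 11.39 and 11.45 after 3 h, 11.98 and 12.03 after 12 h, 11.44 and 11.42 after 24 h and 11.46 and 11.42 after 48 h. The changes were -0.61, -0.02, -0.60 and -0.59, each ± 0.09, and the second probe set had -0.54, 0.03, -0.59 and -0.73. The steps up from 3 h to 12 h (0.58) and down from 12 h to 24 h (-0.58) both passed (adjusted p = 3.4e-03 and 1.9e-03 by limma). Under spike-in scaling the change at 3 h turned to 0.18 and that at 48 h to 0.00.

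**Figure D3:**
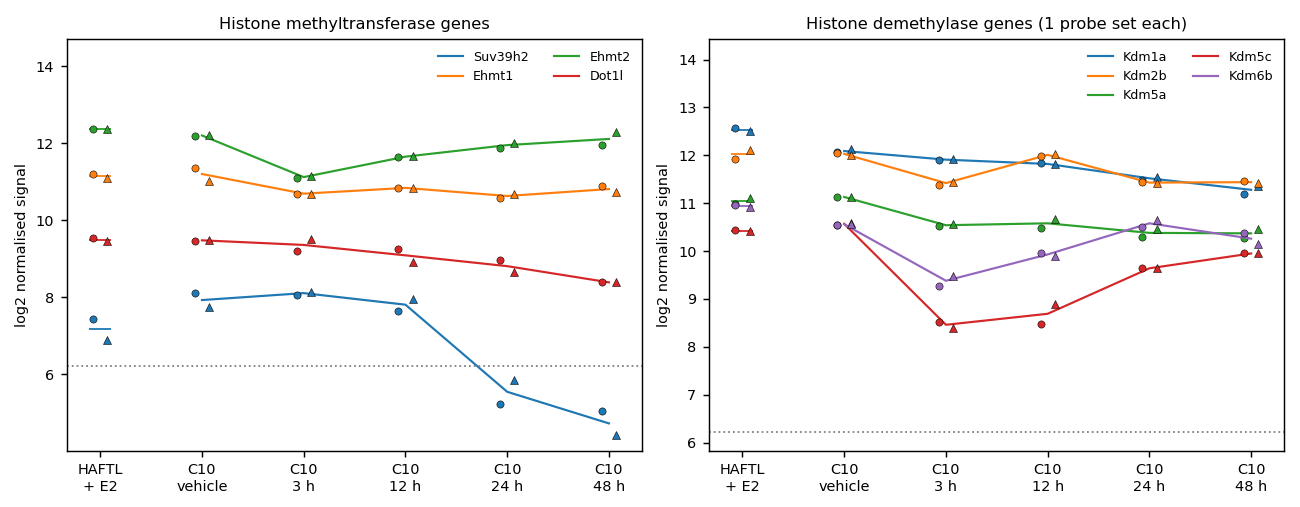
Log2 normalised signal of histone methyltransferase and demethylase genes in every array (circle, replicate 1; triangle, replicate 2) by group, brightest probe set of each gene, with lines through the C10 group means and the filter level dotted. Suv39h2 falls under the filter level at 24 h and 48 h, Ehmt2, Kdm6b and Kdm5c dip at 3 h and rise again, and Kdm2b at 12 h (11.98 and 12.03) overlaps with vehicle C10.

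For Kdm5a, Kdm5c and Nsd1, for Smarcc1 at 12 h and in HAFTL, and for Kdm6b between 3 h and 48 h, the direction depended on the probe set. Among genes with 2 or more tested probe sets, 4.28%, 5.13%, 4.05% and 4.88% were called in both directions in order of time. Single probe sets were called higher in 20.6%, 22.1%, 23.7% and 25.6% and lower in 20.3%, 21.8%, 26.4% and 30.1% of those tested. The brightest probe set of Kdm5a, a demethylase related to Kdm5c, had log2 signals of 11.13 and 11.13 in vehicle C10, 10.52 and 10.56 after 3 h, 10.49 and 10.67 after 12 h, 10.29 and 10.47 after 24 h, and 10.27 and 10.46 after 48 h. It was lower at all 4 times, by -0.55 to -0.76; at 3 h its change of -0.59 turned to 0.10 under spike-in scaling. A dimmer one went from 8.69 and 8.79 to 10.07 and 9.55, and was higher at all 4 times, by 0.82 to 1.22. A further one rose by 0.43 at 3 h and 0.95 at 48 h, and the other 2 passed at no time. With all probe sets averaged, Kdm5a had -0.05 at 3 h and 0.15, 0.17 and 0.24 at 12 h, 24 h and 48 h, none of them called.

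Of the 8 tested probe sets of Kdm5c, only the brightest was called lower. One went from 7.82 and 7.83 in vehicle C10 to 9.38 and 9.09 at 48 h, and rose by 0.82 ± 0.12 at 3 h and 1.41 ± 0.12 at 48 h (adjusted p = 3.8e-05 by limma). A pair of dim ones rose at 48 h by 1.16 and 0.93, and the other 4 passed at no time. Averaged over its probe sets, Kdm5c had -0.06, 0.14, 0.32 and 0.45 in order of time, the last of them called higher (adjusted p = 0.0239). Nsd1, a methyltransferase of histone H3, had 10.13 and 10.20 in vehicle C10 and 9.26 and 9.64 at 3 h in its brightest probe set, and fell by 0.71 ± 0.13 there and by 0.42 at 12 h, where spike-in scaling gave 0.03. Another probe set of Nsd1 went from 8.14 and 8.05 to 8.96 and 9.27 and rose by 1.02 ± 0.14 at 3 h, 1.37 at 24 h and 0.45 at 48 h. The annotation used does not say which part of each transcript a probe set covers.

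**Figure D4:**
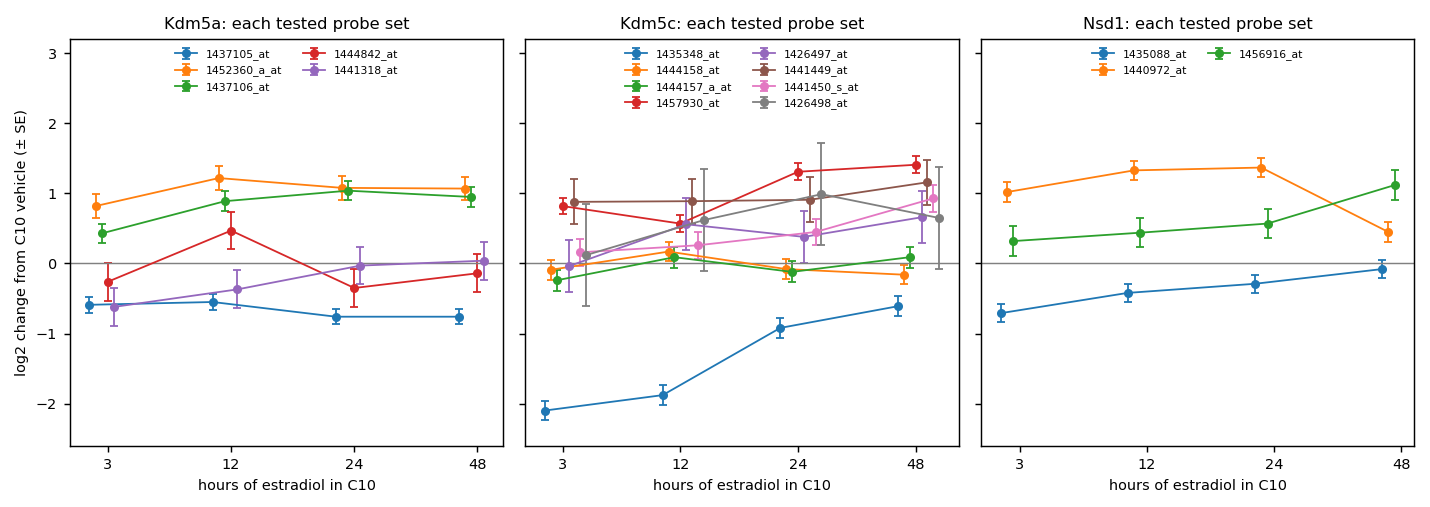
Log2 change from vehicle C10 (± SE of the fit, 2 arrays per group) at 3, 12, 24 and 48 h for each tested probe set of Kdm5a (5), Kdm5c (8) and Nsd1 (3). The brightest probe set, in blue, is the lowest line at 48 h in all 3 panels, and at least 1 other probe set of each gene lies above 0.

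Among the ATPase genes, those of SWI/SNF and ISWI were called lower by 48 h, and the CHD genes were not. Smarca4, the BRG1 gene and the main SWI/SNF motor, had log2 signals of 12.89 and 12.88 in vehicle C10, 12.17 and 12.20 at 3 h and 11.86 and 11.85 at 12 h, then 11.62 and 11.76 by 24 h and 11.71 and 11.74 by 48 h. No later array reached the vehicle level. Smarca4 fell by 0.70 ± 0.08 at 3 h, where spike-in scaling gave 0.15 and averaging its probe sets gave -0.29 (adjusted p = 0.0658), by 1.03 at 12 h, and by 1.16 ± 0.08 at 48 h (adjusted p = 1.1e-05 by limma). Its second probe set had between -0.14 and 0.12 and passed at none of the 4 times.

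Smarca2, the BRM gene and the alternative motor, had log2 signals of 8.69 and 9.02 in vehicle C10, 8.27 and 7.93 in the 3 h arrays, 7.44 and 8.16 in those of 12 h, 7.11 and 7.38 in those of 24 h and 7.88 and 7.70 in those of 48 h. All later arrays were below both vehicle arrays. It was lowest at 24 h (-1.61 ± 0.25, adjusted p = 1.0e-03 by limma), a fall that remained called under spike-in scaling (-1.30). The fall of 0.76 at 3 h was not called without any 1 of the vehicle arrays (-0.92, adjusted p = 0.0623, and -0.59, 0.190) or of the 3 h arrays (-0.93, 0.0558, and -0.58, 0.190). The fall of 1.06 at 12 h was not called without the second vehicle array (-0.90, adjusted p = 0.0616) and was -0.70 without the first 12 h array. Its second probe set had between 0.02 and 0.40 and passed at no time, and averaging both gave -0.18 at 3 h, -0.47 at 12 h and -0.52 at 48 h, none of them called.

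Smarca5, the ISWI motor, was not called before 24 h in its brightest probe set and then fell. Its log2 signals were 12.85 and 12.87 in vehicle C10, between 12.78 and 13.01 in the 3 h and 12 h arrays, 11.87 and 11.88 after 24 h, and 11.76 and 11.65 after 48 h. The early arrays overlapped with vehicle C10 and the late ones were all below it. The fall was 0.98 ± 0.09 at 24 h and 1.16 ± 0.09 at 48 h (adjusted p = 2.0e-05 by limma). Another of the 4 tested probe sets of Smarca5 fell too, from 11.39 and 11.27 in vehicle C10 to 10.24 and 10.37 at 24 h. A dimmer probe set of Smarca5 had 10.42 and 10.53 in vehicle C10, and lay above it at 3 h (11.34 and 11.10) and 12 h (11.13 and 11.23). At 24 h that probe set had 10.23 and 10.45. Chd4 and Chd7, motors of other complexes, had 0.07 and 0.32 at 48 h in their brightest probe sets, with 95% intervals from -0.49 to 0.63 and from 0.04 to 0.60, and neither passed. A dimmer probe set of Chd7 rose by 0.76 at 12 h and 0.67 at 48 h.

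Among the SWI/SNF subunits, Smarcc1 rose and then fell. Its log2 signals were 11.82 and 11.81 in vehicle C10, 12.43 and 12.38 after 3 h, 12.00 and 11.89 after 12 h, 11.12 and 11.10 after 24 h and 11.13 and 10.89 after 48 h. The arrays of 3 h and 12 h lay above vehicle C10 and those of 24 h and 48 h below it. This scaffold gene rose by 0.59 ± 0.10 at 3 h (adjusted p = 3.1e-03 by limma) and fell by 0.81 ± 0.10 at 48 h (adjusted p = 3.5e-04). A second probe set fell by 1.90 ± 0.11 at 48 h, whereas the third one rose by 1.95 at 3 h and had 0.31 at 48 h. At 12 h these were called in opposite directions (-0.36 and 1.44), as they were between HAFTL and vehicle C10 (-0.63 and 1.23), where the brightest probe set had 0.07 and did not pass. The core subunit Smarcb1 kept between 10.74 and 10.97 up to 24 h beside 10.98 and 10.87 in vehicle C10, and was 10.03 and 10.18 at 48 h, a fall of 0.82 ± 0.09 (adjusted p = 1.5e-04). With its 3 probe sets averaged that fall was 0.21 and not called (adjusted p = 0.0571 by limma). The other tested probe set of Smarcb1 did not fall, with 8.30 and 8.35 at 48 h beside 8.18 and 8.09 in vehicle C10. The third was not tested and lay at the floor in 10 of the 12 arrays.

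The 3 Smarcd genes encode alternative subunits of the same position, and their signals differed. Smarcd2 had log2 signals of 13.44 and 13.42 in vehicle C10 and between 12.61 and 12.81 in all later C10 arrays. It fell by 0.81 ± 0.09 at 3 h (adjusted p = 2.7e-04 by limma) and by 0.70 ± 0.09 at 48 h, which turned to 0.06 and 0.04 under spike-in scaling. The second probe set was lower at all 4 times, by -0.62 at 3 h and -0.57 at 48 h, but the average over all 3, the dimmest included, had -0.28, -0.20, -0.19 and -0.09 at the 4 times and was not called. Smarcd1 had 7.76 and 8.28 in vehicle C10, 9.13 and 9.61 at 3 h and 8.58 and 8.55 at 12 h, then 8.04 and 8.13 by 24 h and 7.10 and 8.08 by 48 h. Its 3 h and 12 h arrays lay above vehicle C10, and those of 24 h and 48 h overlapped with it. It rose by 1.35 ± 0.32 at 3 h (adjusted p = 0.0123), a rise not called without the first vehicle array (1.08, adjusted p = 0.0756) or the second 3 h array (1.10, 0.0733), and at 48 h had -0.43 with a 95% interval from -1.17 to 0.31. Smarcd3 was under the filter level in all 12 arrays, with 5.48 and 5.40 in HAFTL, the floor and 4.79 in vehicle C10, and between the floor and 5.29 in the other C10 arrays (the floor is a signal of 16). Arid1a, a DNA-binding subunit, fell by 0.51 ± 0.11 at 24 h, and its changes of -0.35 at 12 h and -0.47 at 48 h turned to 0.17 and 0.08 under spike-in scaling. Smarce1 fell by 0.58 ± 0.15 at 48 h in its brightest probe set, which had 0.05 at 12 h. The second probe set of Smarce1 was lower already at 12 h, with 9.43 and 9.63 beside 10.35 and 10.31 in vehicle C10. At 48 h it had 9.64 and 9.79.

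**Figure D5:**
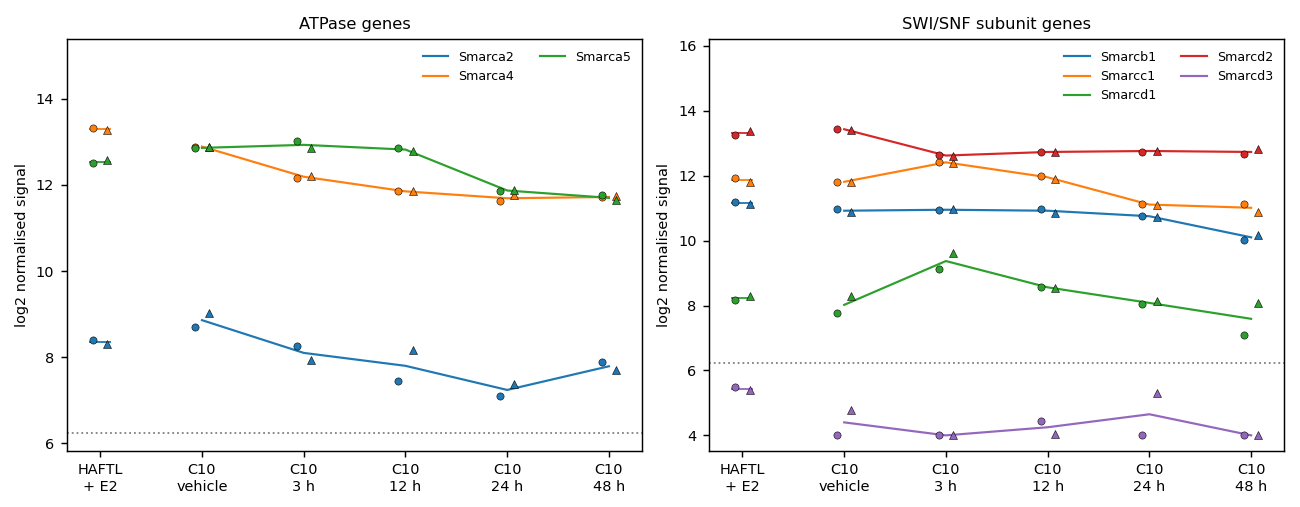
Log2 normalised signal of ATPase genes (left) and SWI/SNF subunit genes (right) in every array (circle, replicate 1; triangle, replicate 2) by group, brightest probe set of each gene, with lines through the C10 group means and the filter level dotted. Smarca4 and Smarcd2 are below vehicle C10 at all 4 times, Smarca5 and Smarcc1 from 24 h, Smarcb1 at 48 h, and Smarcd3 stays under the filter level.

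Between consecutive times, the members changed most often from 12 h to 24 h, as did all genes tested. From 3 h to 12 h, 4 members rose and 7 fell, beside 14.7% and 13.8% of all genes, but without any 1 of the 4 arrays at most 2 fell, and without the first 3 h array or the second 12 h array 1 or 2 rose. From 12 h to 24 h, 4 rose and 12 fell, beside 20.5% and 21.3%. Polycomb genes were 7 of the 12 that fell and 13 of the 36 members tested. From 24 h to 48 h, 4 rose and 3 fell, beside 7.70% and 15.0%, and without the first 24 h array 1 fell. Between 3 h and 48 h, 7 rose and 18 fell, beside 27.8% and 33.6% of all genes, and 6 members (14.8% of all genes) were called higher than vehicle C10 at 1 time and lower at another: Ezh1, Ezh2, Suz12, Jarid2, Phc1 and Smarcc1. Among members above the filter level at both times, Ezh2 (-1.93 ± 0.09), Cbx2 (-1.73 ± 0.16), Phc1 (-1.36 ± 0.22) and Suz12 (-1.02 ± 0.12) had the largest changes from 12 h to 24 h, and Suv39h2, under that level at 24 h, was at least 2.99-fold lower.

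Other genes of these complexes were counted in the same fit, in which 19.6% of all genes were called higher and 25.9% lower after 3 h, and 23.5% higher and 37.2% lower after 48 h. The 19 further Polycomb genes tested split into 9 higher and 5 lower after 3 h, and 3 higher and 12 lower after 48 h. Pcgf5, a PRC1 subunit related to Bmi1, rose by 3.16 ± 0.09 at 48 h, to a signal 8.94-fold higher, and its relative Pcgf6 fell by 2.10 ± 0.18. Rbbp7, a histone-binding subunit of PRC2, rose by 0.86 ± 0.10 at 3 h and fell by 1.35 ± 0.10 at 48 h. Of 33 further remodeller genes, 3 were higher and 21 lower at 48 h, among them the SWI/SNF subunit genes Bcl7a, by -3.63 ± 0.19, and Phf10, by -2.58 ± 0.12. Hells, a remodeller of dividing cells, rose by 1.07 ± 0.13 at 12 h and fell by 3.36 ± 0.13 at 48 h.

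Further methyltransferase and demethylase genes went both ways at 48 h, again beside 23.5% of all genes higher and 37.2% lower. Of 19 further methyltransferase genes, 9 were higher and 6 lower, with Kmt2e up by 1.73 ± 0.11, and Smyd2 and the arginine methyltransferase gene Prmt5 down by -1.91 ± 0.13 and -1.73 ± 0.12. Of 14 further demethylase genes, 6 were higher and 5 lower. Kdm7a fell by 0.90 ± 0.17 at 3 h and rose by 1.84 ± 0.17 at 48 h, while the related oxygenase genes Riox1 and Riox2 had -1.62 ± 0.12 and -0.95 ± 0.13.

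By their brightest probe sets, 4 of the 36 members differed between HAFTL and vehicle C10, 3 higher and 1 lower in HAFTL, beside 5.28% and 6.14% of all genes. Ezh2 had log2 signals of 11.73 and 11.67 in HAFTL, below the 12.46 and 12.40 of vehicle C10, a difference of -0.73 ± 0.09 (adjusted p = 3.8e-03 by limma). Cbx8 was higher in HAFTL by 0.67 ± 0.16 (adjusted p = 0.0415), Kdm1a by 0.44 ± 0.09 (0.0216) and Smarca4 by 0.40 ± 0.08 (0.0240). Without any 1 of the HAFTL or vehicle arrays, 0 members were called higher, whereas Ezh2 was called in all 4 cases. Kdm1a then had 0.41 to 0.48 and Smarca4 0.38 to 0.42, with adjusted p from 0.0682 to 0.110. Dimmer probe sets could differ more. The second probe set of Smarca4 had log2 signals of 11.83 and 11.64 in HAFTL against 10.61 and 10.67 in vehicle C10. For Kdm5a, whose brightest probe set had -0.09 and did not pass, a dimmer one had 9.98 and 9.68 against 8.69 and 8.79. With HAFTL in place of vehicle C10 as the control, none of the called changes of the members turned sign.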

How the data were processed

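The deposited file holds 1 linear signal intensity per probe set and array. All arrays had the same 2% trimmed mean, so the authors had scaled the deposited intensities; software and genome build: not given in the sources used here. Intensities were taken to log2 and quantile normalised over 45101 probe sets, of which 64 controls were then dropped, and signals under 16 set to 16. This floor understates folds of dim genes. Before normalisation, 21.2% to 24.6% of the probe sets that were not controls were under 16. Folds against a group under the filter level in both arrays are given as at least so many. Probe sets with 1 gene in the platform annotation (34958, of which 34754 matched RefSeq genes of GRCm38.p6 by Entrez ID) were named; 1 further probe set shared by Kdm6b and another gene was not used. limma (3.58.1, R 4.3.3) fitted 1 mean per group to all arrays (residual degrees of freedom 6, prior 1.61), two-sided, adjusted over the 26501 probe sets tested. Intervals are at 95%. The fit was tested on simulated data. Duplicates correlated at 0.976 to 0.980 across genes. Members, lists and tests were chosen with earlier results of these data known. Members were given array by array if among the 5 largest called changes of their class at 48 h, called in opposite directions at different times, called with a change of at least 1 in HAFTL, or one of Ezh1, Ezh2, Smarca2, Smarca4 and the Smarcd genes; Ehmt2, Kdm6b, Nsd1 and the other probe sets of Kdm5a and Kdm5c were added after their values were seen. Other named genes were the 3 largest called changes of each list at 48 h. Further lists used were cell cycle, B lineage, macrophage, granulocyte, T cell and erythroid markers; of 3 erythroid markers with a probe set, 2 were under the filter level in vehicle C10. Alternatives were other scalings (deposited values, array median, poly-A spike-in), filters and floors, averaging probe sets, fewer groups, a replicate block, an intensity trend, HAFTL as control, and leaving out each array.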

Additional observations from a re-analysis of the deposited data

Results flagged for a closer look

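For 5 members the change at 48 h was called in the direction opposite to that at 3 h (limma, adjusted p). A called difference between the 2 times follows from such opposite calls in the same fit, so its p-values add no separate support. Ezh2 differed by -2.81 ± 0.09 between 48 h and 3 h (SE, n = 2 per group; adjusted p = 2.3e-07), from 0.87 to -1.94. Ezh1 differed by 1.66 ± 0.09 (2.7e-06), from -1.11 to 0.55. Jarid2 differed by -1.70 ± 0.19 (1.2e-04), Suz12 by -1.48 ± 0.12 (2.0e-05) and Smarcc1 by -1.40 ± 0.10 (1.5e-05). Of all genes tested, 14.8% were called higher at 1 of the 4 times and lower at another, and 6 of the 36 members were. Ezh1 was the only one of the 5 whose change went from lower to higher.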

How the results depend on the processing

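Of 65 called changes of the members given array by array under the rule above, all kept sign and call with an intensity trend or a floor of 64. Scaling to the spike-in transcripts left 13 called and ended 42 calls with the sign kept. The other 10 also lost their call, with a change that turned sign or came to 0.00, and the cause was not tested. These 10 were Ehmt1 (0.20 at 3 h, 0.12 at 12 h, 0.15 at 48 h), Kdm2b (0.18 at 3 h, 0.00 at 48 h), Kdm5a (0.10) and Smarca4 (0.15) at 3 h, Smarcd2 (0.06 at 3 h, 0.04 at 48 h) and Kdm1a (0.30 at 12 h). Outside these 65, called changes of Rnf2, Bmi1, Ehmt2, Nsd1 and Arid1a also turned sign or came to 0.00, as given beside their values. Averaging probe sets ended 15 calls with the sign kept and turned the sign of 6, for genes whose probe sets disagree: Kdm5a (0.15, 0.17 and 0.24) and Kdm5c (0.14, 0.32 and 0.45) at 12, 24 and 48 h. Of these 6, only Kdm5c at 48 h was called in the new direction (adjusted p = 0.0239 by limma). Fitting the compared groups only ended 13, array-median centring 5, HAFTL as control 5, no filter 3 and the deposited values as they stand 3, for Phc1 (0.54) and Kdm1a (-0.21) at 12 h and Smarca4 in HAFTL (0.35).

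Counts of members moved as follows. Under spike-in scaling the lower members numbered 1, 1, 3 and 2 in order of time and the higher ones 0 at 12 h, 0 at 24 h and 1 at 48 h, with 0 and 0 from 3 h to 12 h, 0 higher and 4 lower from 12 h to 24 h, 0 and 0 from 24 h to 48 h, and 0 and 0 for HAFTL. With probe sets averaged, 5 were lower at 3 h, 5 higher and 7 lower at 12 h, 5 higher at 48 h, 1 higher from 12 h to 24 h and 1 lower from 24 h to 48 h. With the compared groups only, which leaves 2 residual degrees of freedom, 10 were lower at 12 h, 0 higher and 1 lower from 3 h to 12 h, 0 and 0 from 24 h to 48 h, and 0 and 0 for HAFTL. With HAFTL as control 2 were higher at 24 h. For HAFTL, the deposited values gave 2 lower, centring 1 higher and 2 lower, a stricter filter 5 and 2, the trend 2 lower and the floor of 64 2 lower; from 24 h to 48 h the trend gave 5 lower.

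Without 1 array, counts ranged from 5 to 7 higher and 11 to 12 lower at 3 h, 2 to 3 and 11 to 12 at 12 h, 1 to 2 and 18 to 19 at 24 h, and 2 to 3 and 21 to 24 at 48 h. They ranged from 1 to 4 and 1 to 2 from 3 h to 12 h, 3 to 4 and 9 to 11 from 12 h to 24 h, 3 to 3 and 1 to 3 from 24 h to 48 h, and were 0 and 1 for HAFTL. Same-numbered arrays did not deviate together (correlations of -0.04 to 0.04 over 15 pairs of groups), so the numbers pair nothing; with the replicate number as a block, 63 of 65 calls remained, and Smarca2 at 3 h (adjusted p = 0.0534) and Phc1 at 12 h (0.0666) were lost. With 2 arrays per group and dim probe sets held at the floor, values at the floor have no order.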
